A study of Mus musculus with 8 samples.

Results

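The RNAs described here are 8 non-coding transcripts measured in cultures of mouse embryonic stem (ES) cells on feeder fibroblasts. They are Malat1, Neat1, Meg3 and the snoRNA host RNAs Gas5, Snhg1, Snhg5, Snhg8 and Snhg11. They were found by gene name, description, older symbol or accession on a mouse expression array, where Meg3 is written Gtl2, Snhg1 is annotated as the host gene of the U22 snoRNA and several others carry RIKEN clone names. They are represented by 21 of 41174 probes: 4 for Malat1, 1 for Neat1, 5 for Meg3, 2 for Gas5, 1 for Snhg1, 2 for Snhg5, 2 for Snhg8 and 4 for Snhg11. The probes of a gene are numbered by their mean signal. RNA came from 1 re-derived transgenic ES line, Dazl-GFP, kept in serum medium with LIF, the MEK inhibitor PD0325901 and the GSK3β inhibitor CHIR99021 (2i), over γ-irradiated feeder fibroblasts. All 8 arrays share this genotype and culture. They comprise 3 Input arrays with no antibody, 3 arrays of RNA recovered with an anti-GFP antibody (GFP IP) and 2 of RNA recovered with an anti-PABP1 antibody (PABP1 IP), by native immunoprecipitation, and the design asks which RNAs are bound to DAZL, a germ cell RNA-binding protein. No control-antibody IP was analysed here, and the labels do not say whether GFP is joined to DAZL in this line or reports its gene.

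Malat1 and Neat1 are abundant nuclear RNAs, found at nuclear speckles and paraspeckles, and the mature 3′ end of Malat1 is a triple helix in place of a poly(A) tail. Meg3 is an imprinted RNA transcribed from the maternal chromosome. snoRNA host RNAs carry small nucleolar RNAs in their introns: splicing releases the introns for snoRNA processing, while the exons form an RNA that is exported and, in several hosts, turned over on ribosomes. PABP1 binds the poly(A) tails of cytoplasmic mRNAs, and many snoRNA hosts, Gas5 and Snhg1 among them, are described as starting with a run of pyrimidines, as mRNAs of ribosomal proteins do.

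The annotated starts of the 5 host RNAs are shown because such a run is described for hosts of this kind, with Malat1, which hosts no snoRNA, beside them. Each window spans 10 bases before and 20 bases from a start annotated by RefSeq (build GRCm38.p6), and capitals mark the longest unbroken run of C and T on the transcribed strand.
Gas5 (the first of 2 starts, chr1:161034591-161034620, + strand): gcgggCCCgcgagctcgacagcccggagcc
Gas5 (the second start, chr1:161035156-161035185, + strand): ccatctcagCCTTTCggagctgtgcggcat
Snhg1 (chr19:8723477-8723506, + strand): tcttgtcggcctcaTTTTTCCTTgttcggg
Snhg5 (chr9:88522878-88522907, - strand): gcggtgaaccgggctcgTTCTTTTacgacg
Snhg8 (chr3:123508317-123508346, - strand): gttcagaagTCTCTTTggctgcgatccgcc
Snhg11 (chr2:158375703-158375732, + strand): tgcggcaCTCactcacgcactcagcctgct
Malat1 (chr19:5802653-5802682, - strand): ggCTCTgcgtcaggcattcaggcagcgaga
The longest run was 9 bases in Snhg1, 7 in Snhg5 and Snhg8, 6 at the second Gas5 start, 4 in Malat1 and 3 at the first Gas5 start and in Snhg11, so the hosts did not share a long run in these windows. Of 32851 annotated start windows of the same length, 7.1% held a run of at least 9, 17.9% one of at least 7, 28.7% one of at least 6, 68.6% one of at least 4 and 88.3% one of at least 3. The 2 Meg3 windows held runs of 5 and 3. These runs are a description of the annotated windows, in which the true first base may differ.

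Levels are log2 signal relative to the 75th percentile of all probes on the same array, so a level of 0 equals that percentile. Across the 8 arrays, 41.5% to 52.6% of spots were well above background by the scanner software, and none was saturated. A probe was tested if all arrays of 1 group or more had it well above background, which held for 20623 probes and for 16 of the 21 described here. The 5 others, Malat1 probe 4, Meg3 probes 3 to 5 and Snhg8 probe 2, were too dim for a test. Only 7 of the 16 were well above background on all 8 arrays: Neat1, Meg3 probes 1 and 2, both Gas5 probes, Snhg5 probe 1 and Snhg11 probe 2. The remaining 9 passed the filter through groups that included Input, where they were high, so their being lower in an IP is partly built into the choice. Malat1 probes 2 and 3 and Snhg11 probes 3 and 4 passed through Input alone. For these the filter itself favoured a lower call in both IPs, and their adjusted p-values do not allow for that. Correlations between arrays of a group were 0.973 to 0.992. The ES cell markers checked were well above background on every array, for 9 of 9 genes on the array.

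Tests are limma's moderated test over all tested probes, with Benjamini-Hochberg adjustment, and a call is an adjusted p below 0.05. Whether replicate arrays stem from different cultures is not stated in the labels, so the p-values rest on a spread between samples that could be purely technical. In the GFP IP, all 16 tested probes were lower than in Input, against 39.1% of all tested probes called lower and 24.2% called higher. Of the 7 probes well above background on every array, all 7 were lower, where 43.8% of such probes were called lower and 24.2% higher. In the PABP1 IP, 13 probes were lower, 2 were higher and 1 did not pass, where 25.9% of all tested probes were called lower and 34.5% higher. Of the 7 bright on every array, 4 were lower and 2 higher, against 28.0% and 37.1%. The 2 that rose were Gas5 probe 1 and Snhg5 probe 1. Between the IPs, 3 probes were lower in the GFP IP and 8 higher, against backgrounds of 43.7% and 26.6%. Among those 8, Malat1 probe 3 and Snhg11 probe 4 were dim on every array of both IPs, so their calls compare signals near background. Of the 7 bright probes 3 were lower and 1 higher, against 46.9% and 26.3%.

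The median of all tested probes was itself displaced, by −0.38 for GFP IP over Input, 0.22 for PABP1 IP over Input and −0.52 for GFP IP over PABP1 IP. Counted from that median, 15 probes were lower in the GFP IP and none higher (Gas5 probe 1 no longer passed), 13 were lower and 2 higher in the PABP1 IP, and 3 were lower and 9 higher between the IPs. Over all tested probes the calls from that median were 5102 lower and 6723 higher, 6384 and 5912, and 5953 and 7418 in the same order. Both comparisons with Input use the same 3 Input arrays. The arrays lay on 2 slides, each holding all 3 groups: within slide 1 the counts were 14 lower in the GFP IP and 13 lower and 2 higher in the PABP1 IP, and within slide 2 they were 16, 13 and 2. Of the 20623 probes, the same fits called 6861 lower in the GFP IP and 4951 lower and 6904 higher in the PABP1 IP within slide 1, and 6830, 4408 and 6468 within slide 2. The Gas5 probe 1 difference of −0.61 (adjusted p = 0.0528) was 1 of the 2 that slide 1 did not pass. In each slide some groups have a single array, which is assumed to vary as the other arrays do. With normexp background correction in place of the scanner's, only Malat1 probe 1, Neat1, Meg3 probes 1 and 2, Snhg8 probe 1 and Snhg11 probe 1 still passed as lower in the GFP IP. With the same correction, these 6 and also Malat1 probe 2 and Snhg1 passed as lower in the PABP1 IP, and Gas5 probe 1 as higher. Between the IPs, the calls for Malat1 probe 3, Neat1, Snhg1, Snhg5 probe 2 and Snhg11 probes 1, 2 and 4 did not pass with that correction (adjusted p from 0.22 to 0.976).

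**Figure D1:**
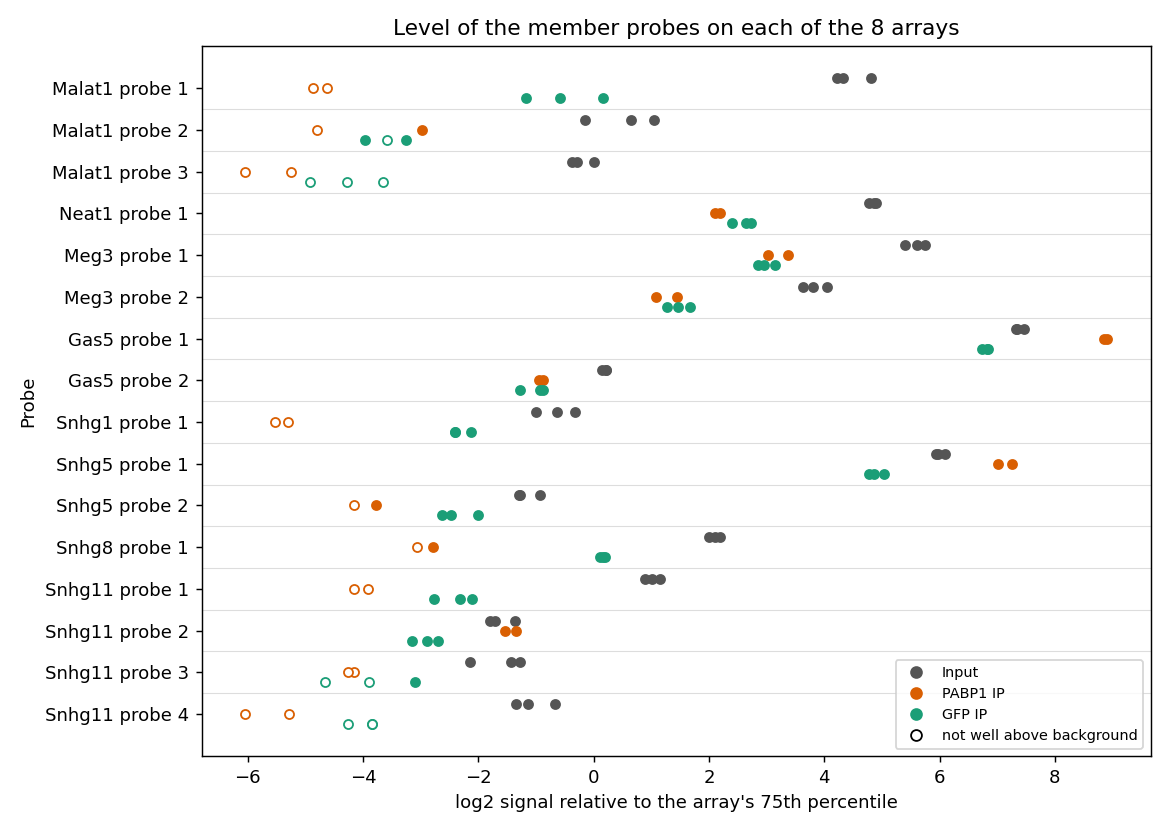
Level of each of the 16 tested probes on each array, in log2 signal relative to the array's 75th percentile; every point is 1 array, coloured by group, and open points were not well above background. Input points lie to the right of both IPs for all probes except Gas5 probe 1 and Snhg5 probe 1, where the 2 PABP1 IP arrays are highest, and Snhg11 probe 2, where Input and PABP1 IP overlap.

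Malat1 probe 1 gave the largest difference from Input of the 16 tested probes, in each IP. For probe 1 (gene at chromosome 19, 5795690 to 5802672, GRCm38.p6), the levels were 4.32, 4.81 and 4.22 on the Input arrays, −1.17, 0.17 and −0.59 in the GFP IP, and −4.62 and −4.87 in the PABP1 IP. The groups did not overlap, with Input highest, the GFP IP between and the PABP1 IP lowest, and neither PABP1 IP array was well above background. The GFP IP lay below Input by 31.5-fold (log2 difference −4.98 ± 0.34 SE, adjusted p = 3.99e-05; −4.39 within slide 1 and −5.10 within slide 2). Because the PABP1 IP signal has only an upper bound, that IP was at least 354-fold lower than Input (adjusted p = 1.43e-05) and the GFP IP was at least 11.2-fold higher than the PABP1 IP (adjusted p = 6.68e-05). These bounds set the bright group's mean against the higher of the dim probe's own signal and the lowest signal well above background on each array. That lowest signal is taken over all probes, so a bound is approximate. The adjusted p printed beside a bound, here and below, is limma's for the measured difference, not for the bound.

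Malat1 probes 2 and 3 also lay below Input in both IPs, but both passed the filter through Input alone, which favours that order. Probe 2 read −0.15, 0.65 and 1.04 in Input, −2.98 and −4.79 in the PABP1 IP and −3.97, −3.26 and −3.58 in the GFP IP. With 2 of 3 GFP IP arrays well above background, it was 17.3-fold lower in the GFP IP (adjusted p = 0.000384). With 1 of 2 PABP1 IP arrays well above background, it was 21.1-fold lower in the PABP1 IP (adjusted p = 0.000448). Dim arrays enter both IP means, so these folds are not exact. With normexp correction the GFP IP difference was −1.49 and did not pass (adjusted p = 0.0618). For this probe the IPs overlapped and their difference of 0.28 ± 0.56 (SE) did not pass (adjusted p = 0.664); it was −0.28 within slide 1 and 1.02 within slide 2, and −0.62 without the second PABP1 IP array. Probe 3 was well above background on the Input arrays alone and was at least 12.8-fold lower in the GFP IP (adjusted p = 8.64e-05) and at least 13.9-fold lower in the PABP1 IP (adjusted p = 4.1e-05). Its measured excess in the GFP IP over the PABP1 IP compares signals that were dim on all 5 arrays, and no fold is given. Probe 4 varied from −4.74 to 0.55 among the Input arrays, where it overlapped the GFP IP (−4.14, −5.59 and −1.95), and was not tested.

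Neat1, the scaffold of paraspeckles, has 1 probe (gene at chromosome 19, 5824708 to 5845480), well above background everywhere. Its levels were 4.87, 4.89 and 4.78 in Input, 2.40, 2.65 and 2.73 in the GFP IP, and 2.11 and 2.20 in the PABP1 IP. Both IPs lay below Input with no overlap, and the 2 PABP1 IP arrays were the lowest of all. The difference from Input was −2.25 ± 0.13 (SE) for the GFP IP (4.77-fold lower, adjusted p = 2.28e-05) and −2.69 ± 0.14 for the PABP1 IP (6.45-fold lower, adjusted p = 1.88e-05). Between the IPs the difference was 0.44 ± 0.14 (adjusted p = 0.0278). That call did not hold without the first PABP1 IP array (adjusted p = 0.135), without the second (0.0679), or without GFP IP array 2 (0.0676) or 3 (0.0928), nor within either slide (0.0875 and 0.226). Counted from the median probe, the same difference was 0.96 (adjusted p = 0.000802).

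Meg3, the maternally expressed RNA of the Dlk1-Dio3 imprinted region (chromosome 12, 109540996 to 109571729), was lower in both IPs by similar amounts. Probe 1 read 5.61, 5.75 and 5.40 in Input, 2.86, 3.14 and 2.95 in the GFP IP, and 3.38 and 3.03 in the PABP1 IP. Probe 2 read 3.81, 4.05 and 3.64 in Input, 1.28, 1.68 and 1.46 in the GFP IP, and 1.45 and 1.09 in the PABP1 IP. For both probes every Input array was above every IP array, while the 2 IPs overlapped. Against Input, probe 1 was 6.05-fold lower in the GFP IP (adjusted p = 2.71e-05) and 5.22-fold lower in the PABP1 IP (adjusted p = 4.56e-05); for probe 2 the folds were 5.13 (adjusted p = 5.19e-05) and 5.92 (adjusted p = 5.04e-05). The IPs were not distinguished by the main scaling: their difference was −0.21 ± 0.18 (SE; adjusted p = 0.3) for probe 1 and 0.21 ± 0.20 (adjusted p = 0.366) for probe 2. Probe 1 turned sign from the median probe (0.30, adjusted p = 0.165), and probe 2 then passed (0.73, adjusted p = 0.0135). Probes 3 to 5 were dim in both IPs on every array, and probe 5 was dim on the Input arrays too.

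Gas5 (chromosome 1, 161034601 to 161038539), a host of several box C/D snoRNAs named for its rise in growth-arrested cells, rose in the PABP1 IP by one of its probes. Probe 1 read 7.35, 7.33 and 7.46 in Input, 8.91 and 8.85 in the PABP1 IP, and 6.82, 6.73 and 6.84 in the GFP IP. The PABP1 IP arrays were the highest and the GFP IP arrays the lowest, with no overlap. The PABP1 IP was 2.83-fold above Input (1.50 ± 0.12 SE, adjusted p = 5.68e-05; 1.57 within slide 1 and 1.40 within slide 2), and the GFP IP was 4.25-fold below the PABP1 IP (adjusted p = 1.35e-05). Below Input, the GFP IP value of −0.58 ± 0.11 (adjusted p = 0.00243) depended on the scaling: it was −0.21 from the median probe (adjusted p = 0.135), −0.05 after median scaling and 0.01 after quantile normalization, none of which passed.

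Gas5 probe 2 did not follow probe 1. It read 0.22, 0.14 and 0.22 in Input, −0.87 and −0.94 in the PABP1 IP, and −1.28, −0.93 and −0.88 in the GFP IP. Both IPs lay below Input, by 2.14-fold for the PABP1 IP (−1.10 ± 0.15 SE, adjusted p = 0.000676) and 2.34-fold for the GFP IP (−1.22 ± 0.14, adjusted p = 0.000256), and the IPs overlapped. The 2 probes of the gene thus moved in opposite directions in the PABP1 IP, each by more than the spread between arrays.

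Snhg5 (chromosome 9, 88521052 to 88522897), host of U50 snoRNA copies, showed the same split. Probe 1 read 5.98, 6.10 and 5.94 in Input, 7.26 and 7.02 in the PABP1 IP, and 4.87, 5.03 and 4.77 in the GFP IP. The PABP1 IP was highest and the GFP IP lowest with no overlap: 2.20-fold above Input (1.13 ± 0.14 SE, adjusted p = 0.000438) and 2.16-fold below Input (−1.11 ± 0.13, adjusted p = 0.000303). The rise in the PABP1 IP was 1.22 within slide 1 and 1.08 within slide 2, but 0.38 after quantile normalization (adjusted p = 0.0566) and 1.39 with normexp correction (adjusted p = 0.0927), where it did not pass.

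Snhg5 probe 2 was lower in both IPs. It read −1.27, −1.29 and −0.93 in Input, −4.15 and −3.77 in the PABP1 IP, and −2.63, −2.47 and −2.0 in the GFP IP. The PABP1 IP was lowest here, 6.95-fold below Input (−2.80 ± 0.23 SE, adjusted p = 7.14e-05), with 1 of its 2 arrays well above background. The GFP IP was 2.31-fold below Input (adjusted p = 0.002) and 3.01-fold above the PABP1 IP (adjusted p = 0.000711; 0.47 with normexp correction, adjusted p = 0.435), and the groups did not overlap. After median scaling the difference between the GFP IP and Input was −0.67 (adjusted p = 0.0905).

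**Figure D2:**
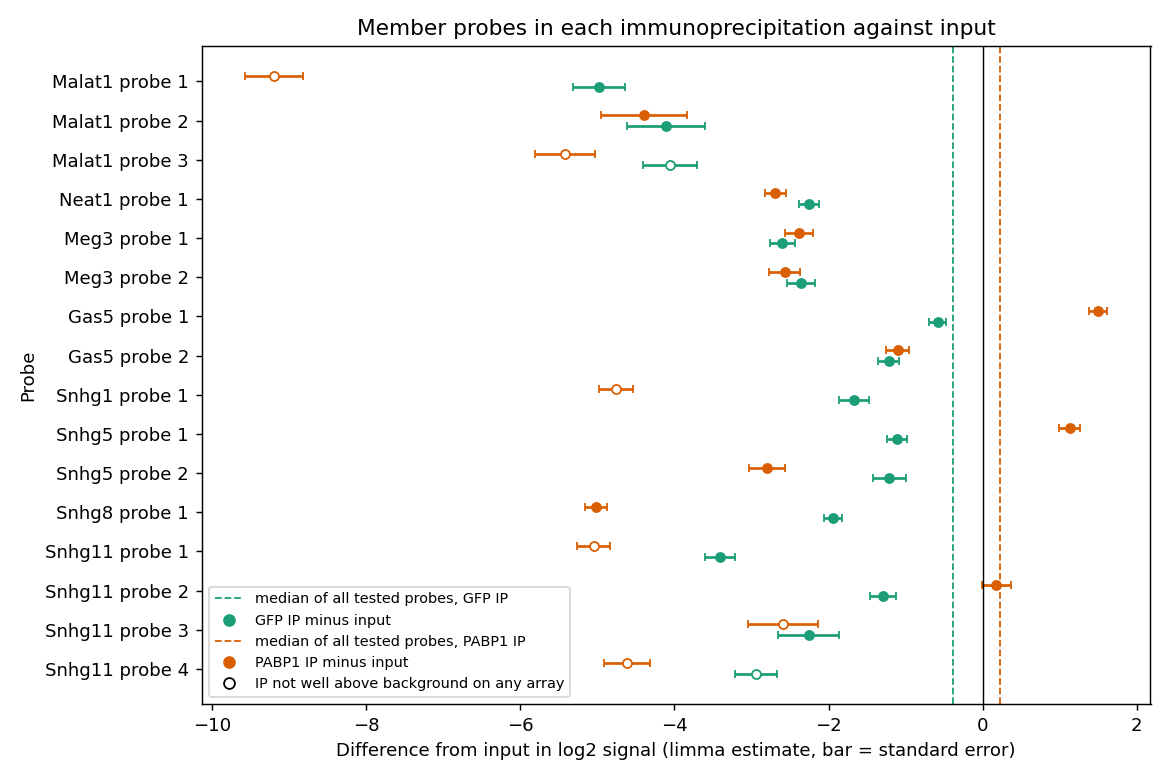
Difference from Input of the GFP IP and the PABP1 IP for each tested probe, in log2 signal (limma estimate, bars are standard errors over 3 Input, 3 GFP IP and 2 PABP1 IP arrays); open points had no IP array well above background, so their true difference may be of another size, and dashed lines mark the median of all tested probes (−0.38 and 0.22). Only Gas5 probe 1 (1.50) and Snhg5 probe 1 (1.13) lie to the right of the PABP1 IP median, and Snhg11 probe 2 (0.18) lies beside it.

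The single Snhg1 probe and the single tested Snhg8 probe were lower in both IPs, and more so in the PABP1 IP. Snhg1 (chromosome 19, 8723487 to 8726326), a host RNA whose spliced exons code for no known protein, read −1.0, −0.63 and −0.32 in Input, −2.41, −2.41 and −2.12 in the GFP IP, and −5.29 and −5.53 in the PABP1 IP. The groups did not overlap and neither PABP1 IP array was well above background. The GFP IP was 3.18-fold below Input (−1.67 ± 0.20 SE, adjusted p = 0.000328), and the PABP1 IP was at least 10.3-fold below Input (adjusted p = 1.73e-05) and at least 3.25-fold below the GFP IP (adjusted p = 2.6e-05; a difference of 0.68 with normexp correction, adjusted p = 0.22). The probe carries the name of the intronic snoRNA Snord22 and the description of its host, so which of the RNAs from this gene it reads was not determined here.

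Snhg8 (chromosome 3, 123507552 to 123508336), a short host RNA, read 2.10, 2.19 and 2.00 in Input, 0.16, 0.19 and 0.12 in the GFP IP, and −3.06 and −2.78 in the PABP1 IP by probe 1. The order was again Input, GFP IP, PABP1 IP, with no overlap. The GFP IP was 3.83-fold below Input (−1.94 ± 0.12 SE, adjusted p = 3.12e-05). The PABP1 IP was 32.4-fold below Input (−5.02 ± 0.14, adjusted p = 1.43e-05) and 8.44-fold below the GFP IP (adjusted p = 1.14e-05), from 1 of 2 PABP1 IP arrays well above background. Probe 2 was well above background on 2 of 3 Input arrays and on no PABP1 IP array, where it was at least 2.63-fold lower, without a test.

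Snhg11 (chromosome 2, 158375713 to 158386474), a host RNA known for its expression in neurons, was lower in the GFP IP by all 4 probes. Probe 1 read 1.01, 1.16 and 0.89 in Input, −2.76, −2.11 and −2.32 in the GFP IP, and −3.91 and −4.15 in the PABP1 IP, with no overlap. It was 10.6-fold lower in the GFP IP (−3.41 ± 0.19 SE, adjusted p = 2.2e-05) and, with no PABP1 IP array well above background, at least 29.8-fold lower in the PABP1 IP (adjusted p = 1.43e-05). Probe 2 read −1.71, −1.36 and −1.79 in Input, −1.35 and −1.53 in the PABP1 IP, and −3.14, −2.88 and −2.70 in the GFP IP. Here Input and the PABP1 IP overlapped and their difference of 0.18 ± 0.19 did not pass (adjusted p = 0.454), while the GFP IP was 2.44-fold below Input (adjusted p = 0.00059) and 2.77-fold below the PABP1 IP (adjusted p = 0.000404; with normexp correction −0.34 and −0.23, adjusted p = 0.685 and 0.787). Probes 3 and 4 were at least 4.97-fold and at least 7.83-fold lower in the PABP1 IP (adjusted p = 0.00201 and 2.88e-05). In the GFP IP probe 3 was 4.77-fold lower with 1 of 3 arrays well above background (adjusted p = 0.00227; −1.37 and adjusted p = 0.0588 within slide 1), and probe 4 was at least 7.19-fold lower (adjusted p = 0.000105).

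Differences between 2 probes of a gene on the same array do not depend on the scaling between arrays. With 2 PABP1 IP arrays against 3 Input arrays, an exact two-sided permutation test cannot go below 0.2, and for 3 against 3 arrays it cannot go below 0.1. For Gas5, probe 1 minus probe 2 was 7.13, 7.19 and 7.24 on the Input arrays, 9.78 and 9.79 in the PABP1 IP, and 8.09, 7.66 and 7.72 in the GFP IP. The PABP1 IP stood 2.60 above Input with no overlap, a 6.06-fold change in the ratio (exact permutation p = 0.2), and the GFP IP 0.64 above (exact permutation p = 0.1). For Snhg5 the same difference rose by 3.93 in the PABP1 IP, or 15.3-fold (exact permutation p = 0.2), and by 0.09 in the GFP IP, where the arrays overlapped those of Input (exact permutation p = 0.6). For Snhg11 it moved the other way, by −5.23 in the PABP1 IP (exact permutation p = 0.2) and −2.12 in the GFP IP (exact permutation p = 0.1). For Malat1 it moved by −4.80 in the PABP1 IP (exact permutation p = 0.2), where probe 1 was not well above background. Snhg11 probe 1 was dim on both PABP1 IP arrays as well, and Snhg5 probe 2 and Malat1 probe 2 each on 1 of them, so those sizes are not exact. The 2 bright Meg3 probes stayed closest of the 5 pairs in the PABP1 IP, with a change of 0.18 (exact permutation p = 0.2), and changed by −0.24 in the GFP IP (exact permutation p = 0.1). In these 5 pairs, 15 changes between groups were computed, without adjustment. Where each probe lies in its transcript, and so which isoforms or unspliced forms it reads, was not analysed here.

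**Figure D3:**
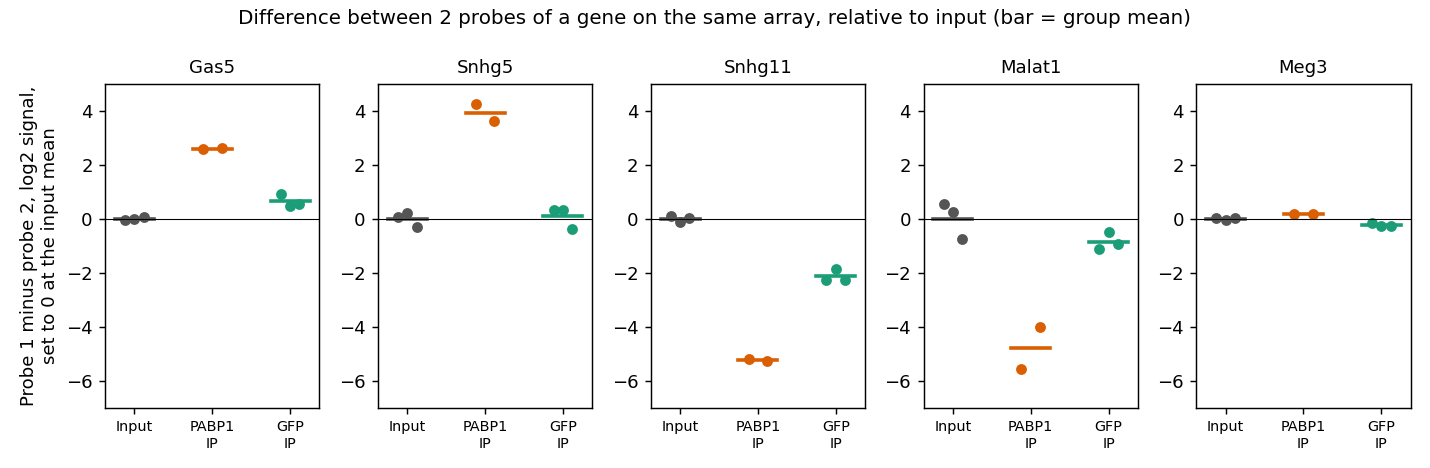
Probe 1 minus probe 2 on the same array for 5 genes, in log2 signal and set to 0 at the mean of the Input arrays; points are arrays and bars are group means. The PABP1 IP stands at 2.60 for Gas5 and 3.93 for Snhg5, at −5.23 for Snhg11 and −4.80 for Malat1, and at 0.18 for Meg3.

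In the authors' deposited table of group means, Malat1 probe 1 stood at 317 in Input, 15.1 in the GFP IP and 0.558 in the PABP1 IP. For Gas5 probe 1 the authors' deposited table gives 1940, 1830 and 5800 in the same order, and for Snhg5 probe 1 it gives 799, 555 and 1800. It holds Neat1 at 443, 126 and 73.9. The scaling behind that table is not stated in the labels or files, and it has no error that is tied to a group. Its order of the groups is the same as above for these probes.

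Among other host RNAs, both directions were found in the PABP1 IP. Of 17 further non-coding snoRNA hosts listed, 8 were on the array and tested: 7 were lower in the GFP IP and none higher (median difference −0.69), while 2 were lower and 4 higher in the PABP1 IP (median 0.42). The shares of all tested probes were 39.1% lower in the GFP IP, and 25.9% lower and 34.5% higher in the PABP1 IP. The only one not lower in the GFP IP was Rian (1.01, adjusted p = 0.19, and −0.07 with normexp correction). Rian passed the filter through the GFP IP alone, with 1 of 3 Input and 1 of 2 PABP1 IP arrays well above background. Its not being lower there is thus partly built into the choice. From the median probe, 3 of the 8 passed as lower in the GFP IP. Snhg14, the host in the Prader-Willi imprinted region, was at least 22.7-fold lower in the PABP1 IP (adjusted p = 2.1e-05) with no array there well above background, and Snhg20 lay at −2.59 ± 0.15 (SE; adjusted p = 2.17e-05). Zfas1, host of Snord12 copies, was higher by 2.22 ± 0.15 (adjusted p = 3.67e-05), and Snhg18 by 1.09 ± 0.19 (adjusted p = 0.00179). In the GFP IP relative to the PABP1 IP, 5 of the 8 were lower, Zfas1 the most (−2.96, adjusted p = 1.17e-05), and 2 were higher.

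Protein-coding mRNAs that carry snoRNAs in their introns were all well above background on every array, 27 of 27. In the PABP1 IP, 37.1% of all probes well above background on every array were called higher and 28.0% lower. Of the 27, 8 were higher and 4 lower (median 0.14), and after quantile normalization 4 and 5 (6557 and 5899 of all 20623 tested probes). The ribosomal protein mRNAs Rpl4 and Rpsa were highest, at 2.58 ± 0.23 (SE; adjusted p = 8.55e-05) and 2.09 ± 0.22 (adjusted p = 0.000188). Taf1d, a subunit of the RNA polymerase I selectivity factor, and Wdr43, a factor of small ribosomal subunit assembly, were lowest at −2.92 ± 0.14 (adjusted p = 1.73e-05) and −2.45 ± 0.19 (adjusted p = 5.15e-05). The probes of Taf1d disagreed too: its 3 others read 0.49, 0.21 and −0.47 in the same comparison, while the second Wdr43 probe read −1.48. In the GFP IP, 43.8% of all probes well above background on every array were called lower and 24.2% higher. There 14 of the 27 were lower and 3 higher (median −0.94). From the median probe, however, these counts were 6 and 4, and after quantile normalization 5 and 8 (6485 and 5849 of all 20623 tested probes). Nop58, a core protein of box C/D snoRNPs, was the lowest at −2.05 ± 0.30 (adjusted p = 0.000889), and the chaperonin subunit Cct6a the highest at 1.48 ± 0.48 (adjusted p = 0.0285).

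Of 25 other long non-coding RNAs listed, 15 were on the array and 8 were tested. In the GFP IP 2 were lower and 1 higher (median 0.04), and in the PABP1 IP 3 were lower and 2 higher (median −0.48). From the median probe these counts were 2 and 3, and 5 and 1. By the main scaling, 39.1% of all tested probes were called lower and 24.2% higher in the GFP IP. In the PABP1 IP these shares were 25.9% and 34.5%. Firre, a nuclear RNA made from the X chromosome, was lower in both, with differences of −2.40 ± 0.16 (SE; adjusted p = 3.5e-05) in the GFP IP and −3.07 ± 0.18 (adjusted p = 2.1e-05) in the PABP1 IP, and its second probe read −2.44 and −2.78. Mirg, a microRNA host that lies downstream of Meg3 in the same imprinted region, was lower in the GFP IP (−2.29 ± 0.42, adjusted p = 0.0024) and at least 9.01-fold lower in the PABP1 IP (adjusted p = 0.000165). The RNA higher in the GFP IP, named after its value was seen, was Rmrp, the RNA of the RNase MRP particle (0.44 ± 0.13, adjusted p = 0.0206); it was lower in the PABP1 IP (−1.20 ± 0.15, adjusted p = 0.000357). Oip5os1 was highest in the PABP1 IP at 1.68 ± 0.31 (adjusted p = 0.00243), but its 2 other probes read 2.87 and −3.12.

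**Figure D4:**
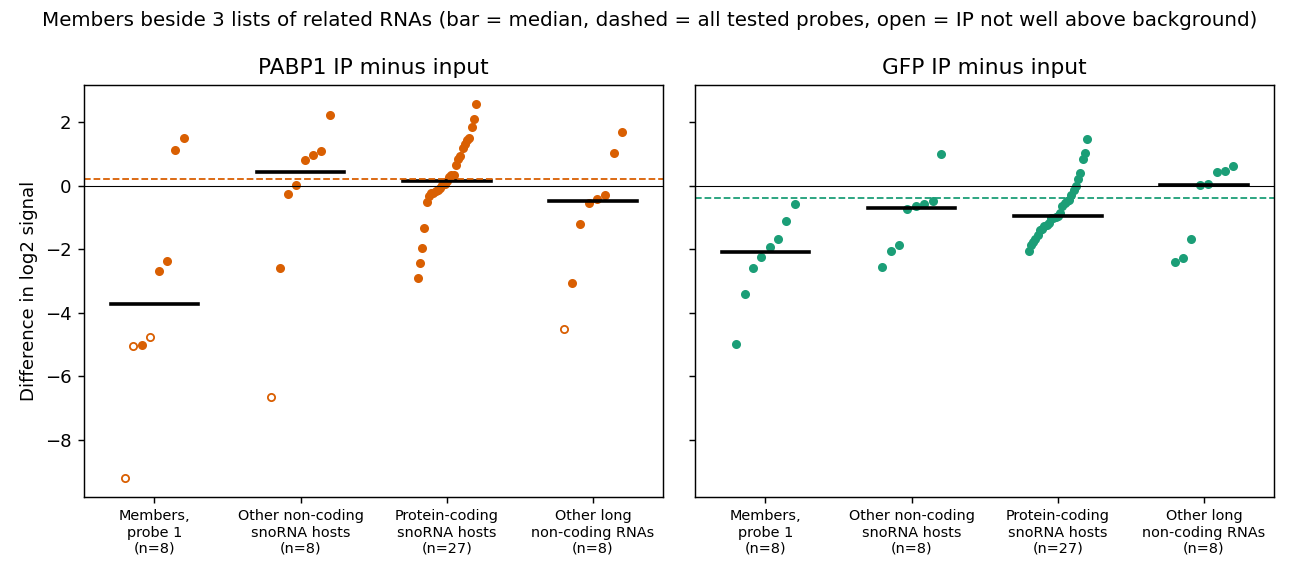
Difference from Input in the PABP1 IP (left) and the GFP IP (right) for probe 1 of the 8 members and for the tested genes of 3 lists, in log2 signal; each point is a gene, open points had no IP array well above background and so no exact difference, black bars are medians and dashed lines the median of all tested probes. In the PABP1 IP the lowest member point is Malat1, an open point known only to be at least 354-fold below Input, the highest is Gas5 at 1.50, and the protein-coding snoRNA hosts extend from −2.92 to 2.58.

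Among genes of the whole array with 1 probe each, the profiles over the 8 arrays most like that of Malat1 probe 1 were those of Marf1 (Euclidean distance 2.41 after centring), Gdap10 (2.44), Snhg14 (3.48), Tpr (3.66) and Rock1 (3.93), out of 12945 genes compared. None was close: they differed from Input by −5.91 to −7.12 in the PABP1 IP, and Gdap10, Snhg14 and Rock1 were not well above background on either PABP1 IP array. For Gas5 probe 1 the nearest were Polb (0.14), Mrps18b (0.15), Fam89b (0.17), Pcmt1 (0.19) and Ube2j1 (0.20). These 5 differed from Input by 1.35 to 1.52 in the PABP1 IP and by −0.51 to −0.69 in the GFP IP.

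Feeder fibroblasts grew with the ES cells, so RNA of both cell types can be present on every array. The comparisons set recovered RNA against Input RNA, so the marker levels do not measure numbers of cells. Of 15 fibroblast markers, 11 were lower in the GFP IP and none higher, and 2 were lower and 6 higher in the PABP1 IP; from the median probe 6 were lower in the GFP IP, and 2 were lower and 4 higher in the PABP1 IP. Of the 20623 tested probes, 39.1% were called down and 24.2% up for the GFP IP, and 25.9% and 34.5% for the PABP1 IP. From the median probe, 5102 were called down and 6723 up for the GFP IP, and 6384 and 5912 for the PABP1 IP. The summed level of the fibroblast markers, in units of the array's 75th percentile, was 195 to 257 in Input, 318 to 377 in the PABP1 IP and 82.1 to 121 in the GFP IP. Between 12 and 15 of them were well above background on an Input array and all 15 on each IP array. With normexp correction, 1 of the 15 fibroblast markers was lower and none higher in the GFP IP, and 1 was higher and none lower in the PABP1 IP. With the same correction, 1 of 9 ES cell markers tested was higher in each IP and none lower. Over all tested probes that correction called 1138 lower and 863 higher in the GFP IP, and 967 and 2336 in the PABP1 IP. By the main values, 4 of the 9 ES cell markers were higher and 2 lower in the GFP IP, and 3 were higher and 2 lower in the PABP1 IP. The shares for these counts, and the median-probe totals for those that follow, are given above with the fibroblast markers. From the median probe, 4 ES cell markers were higher and none lower in the GFP IP, and 3 were higher and 3 lower in the PABP1 IP. Their summed level, which is weighted to the brightest probes, was 2270 to 4240, 2050 to 3960 and 1530 to 2050 in the same order. The part of feeder RNA in the differences of the members was not tested.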

How the data were processed

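Array intensity values were deposited for 8 one-colour arrays (design 014868); per the file headers they were made with Feature Extraction 9.1.3.1 (protocol GE1-v5_95_Feb07), which subtracts background and puts a surrogate for dim spots. The authors also deposited other values, flags for background, saturation and outlier spots, and a table of group mean intensity, used beside the main values. Here log2 signal was taken minus each array's 75th percentile over 43379 spots, spots were averaged per probe, without the 32 probes that had an outlier spot. One limma 3.58.1 fit (R 4.3.3, data.table version 1.17.8) by probe covered all 8 arrays, with 5 residual and 2.17 prior degrees of freedom, and was tested on simulated data. Python 3.11.15, pandas 2.3.3, numpy 2.4.6, scipy 1.17.1 and matplotlib 3.10.9 did the rest. The number of arrays limits the precision. Names came from RefSeq (GRCm38.p6). Every member probe is named; each list gives at most its 2 lowest and 2 highest genes by the probe of highest mean, and likeness is the 5 smallest distances. Members and lists were chosen with earlier results of these data known. The alternatives tried (other background, scaling, filters, blocks, weights, arrays left out) are in the closing section.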

Additional observations from a re-analysis of the deposited data

How the results depend on the processing

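Over 21 alternatives, of the single differences of the tested probes, 897 values kept direction and call, 38 lost the call, 4 gained it and 18 changed sign. In the authors' deposited table, which has no test, 13 differences moved by less than the spread between arrays, 18 by more, and 2 changed sign. Counts of calls changed by construction where fewer probes were tested: with probes well above background on all arrays, 7 were lower in the GFP IP, 4 were lower in the PABP1 IP and 1 was higher between the IPs; with 1 probe per gene these were 8, 6 and 5. With normexp correction 6 and 8 were lower in the GFP and PABP1 IP, 1 was higher in the PABP1 IP and 2 between the IPs, and over all probes that setting called 1138 lower and 863 higher in the GFP IP against 8068 and 4983 (967 and 2336 against 5341 and 7113 in the PABP1 IP, and 3846 and 1615 against 9010 and 5478 between the IPs). With quantile normalization 1 was higher in the PABP1 IP. The cause was not tested. Scaling moved the split of all calls: median scaling gave 3887 lower and 7006 higher in the GFP IP.

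Signs changed as follows, and none of these values passed. Gas5 probe 1, GFP IP over Input, was 0.01 after quantile normalization. Snhg11 probe 2, PABP1 IP over Input, was −0.11 with normexp, −0.07 with the percentile of detected probes, −0.04 from the median probe and −0.05 with array weights. Between the IPs, Meg3 probe 1 was 0.24 (median scaling), 0.20 (quantile), 0.22 (detected probes), 0.30 (median probe) and 0.27 (authors' deposited table, no test), and Gas5 probe 2 was 0.33 (median scaling), 0.31 (detected probes), 0.39 (median probe), 0.07 (normexp) and 0.25 (authors' deposited table, no test). Meg3 probe 2 was −0.03 with normexp, Malat1 probe 2 −0.28 within slide 1 and −0.62 to 1.19 with arrays left out in turn (−0.62 without PABP1 IP array 2), and Snhg11 probe 3 −0.01 within slide 2 and −0.06 to 0.72 with arrays left out (−0.06 without GFP IP array 2). Leaving out a PABP1 IP array leaves 1, assumed to vary as the other groups do. Without PABP1 IP array 2, Malat1 probe 3 lost its call between the IPs (0.96, adjusted p = 0.107).

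Deviations of same-numbered arrays from their group means correlated from −0.762 to 0.748, and those of arrays on 1 slide from 0.433 to 0.849. Same-numbered arrays on 1 slide correlated from 0.643 to 0.748, and those on different slides from −0.762 to −0.266. The sign went with the slide, so whether same-numbered arrays form pairs cannot be read from these values. With the replicate block, the probes called lower were 16 in the GFP IP, 13 in the PABP1 IP and 3 between the IPs, and those called higher 0, 2 and 7; over all probes it called 7991 lower in the GFP IP. The slide as a block changed no member's call. Dim signal limits the PABP1 IP most: 9 of the 16 tested probes had an array there or in the GFP IP not well above background.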
